A study of Mus musculus with 8 samples.

Results

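CC chemokines are small secreted proteins that attract leukocytes, and dendritic cells use them to draw monocytes, other dendritic cells and T cells into tissue and lymph node. Each ligand acts through 1 or more CC receptors on the cell that it attracts, and many ligands share a receptor. In dendritic cells inflammatory signals such as tumour necrosis factor switch several of these genes through the transcription factor NF-kappaB, and the active form of vitamin D is known for holding dendritic cells in a less mature state. The genes described here are Ccl2, Ccl3, Ccl4, Ccl5, Ccl6, Ccl7, Ccl9, Ccl17 and Ccl22. They were taken as every probe set whose single gene symbol on the Affymetrix MOE430A array was one of these 9, of 12393 genes with such a probe set. That gave 11 probe sets of the 22690 on the array, because Ccl6 and Ccl9 each had 2.

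Dendritic cells had been grown from the bone marrow of 9-week-old male mice, and RNA from each of 8 conditions was hybridised to 1 array. The mice were either VDRwt, with a normal vitamin D receptor, or VDRmut, in which the DNA-binding domain of that receptor is deleted. Cells of each genotype were left untreated, given VD3 (1,25-dihydroxyvitamin D3, 1e-06 M), given TNFa (50 ng/ml for 4 h), or given VD3 for 30 min and then TNFa, on day 7 of differentiation. All 8 cultures shared a progenitor phase in SCF, hyperIL-6, Flt-3L, IGF-1, dexamethasone and GM-CSF and a differentiation phase in GM-CSF, so the glucocorticoid dexamethasone was in the history of every group. No condition had a replicate array, and each treatment effect below was therefore averaged over the VDRwt and the VDRmut pair of arrays. Signals are linear MAS5 intensities, which rank 1 probe set across arrays but not different genes against each other. A detection call of Present, Marginal or Absent says whether a probe set stood above its mismatch background.

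The cultures and arrays were checked before the members were read. All 8 dendritic cell markers of the list used here were detected somewhere, though Flt3 and Zbtb46 were Present on only 3 and 2 arrays. Their summed signals were 21590 to 39740 per array. Such sums are led by the brightest genes of a list, here Cd74 and H2-Aa. They compare arrays within a list and not lists with each other. One of them, Itgax (CD11c), read 998.7 and 1168 on the arrays of TNFa alone and 3354 to 5138 on the others. Cd86 went the other way, at 2172.5 and 1174.4 against 255.6 to 718.3. Flt3 (216.4 and 180.6 against 42.6 to 101.0) and Zbtb46 (189.5 and 131.3 against 57.0 to 112.9) were also highest with TNFa alone. The signals of H2-Aa, H2-Ab1, Cd74 and Ciita overlapped between these arrays and the others. The macrophage list summed to 8733 to 14480, with only Marco of its 7 genes never Present. Neutrophil markers summed to 2768 to 7956 on VDRwt arrays and 11440 to 27970 on VDRmut arrays, with Elane never Present among 9 measured, and in each genotype the lowest sum was that of TNFa alone. Basophil and mast cell markers, eosinophil markers, lymphocyte markers and erythroid markers stayed at sums of 422.9 to 1547, 480.3 to 1533, 116.7 to 190.2 and 79.3 to 159.1. The basophil and mast cell sum was highest on the TNFa-alone array of each genotype (1547 and 985.6). The genes Fcer1a, Ms4a2, Hdc, Mcpt4, Ccr3, Il5ra, Cd3e, Cd3d, Cd79a, Ncr1 and Hba-a1 were never Present. The percentage of probe sets called Present was 46.45 to 51.54. The arrays of TNFa alone stood apart in 1 control, the 5′ probe set of 18S ribosomal RNA, which read 9028 in VDRwt and 6847 in VDRmut against 3.5 to 224 on the other 6 arrays. The 5′ to 3′ ratio of actin was 0.444 on VDRmut untreated and 0.449 on VDRmut VD3+TNFa, against 0.781 to 0.889 on the other arrays. In VDRwt a separate scan day was recorded for the arrays with TNFa, and the VD3+TNFa array was washed with another fluidics protocol. No such record was filled in for VDRmut. The tested Vdr probe set read 33.2 to 185.7 on VDRwt arrays and 6.3 to 67.2 on VDRmut arrays, and since its place relative to the deleted exons is not given, it does not check the genotype. The part of these differences in the results below was not tested except where a value without the arrays is given.

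Ccl17 and Ccl22, both ligands of CCR4 that attract T helper type 2 and regulatory T cells, moved in opposite directions under TNFa. Ccl22 (1417925_at) read 2817, 2459, 9488 and 3402 on the VDRwt arrays of untreated, VD3, TNFa and VD3+TNFa cells, and 2932, 4717, 9094 and 5559 on the matching VDRmut arrays. The arrays of TNFa alone were the highest in each genotype and lay above all other 6. In the limma fit Ccl22 rose 3.23-fold with TNFa when VD3 was left out (log2 change 1.69 ± 0.27 SE, adjusted p = 0.00638), with pair changes of 1.75 in VDRwt and 1.63 in VDRmut. Ccl17 (1419413_at) read 7756, 7459, 3936 and 5894 in VDRwt and 8014, 8333, 2907 and 7097 in VDRmut. Here the arrays of TNFa alone were the lowest of all 8, and untreated and VD3 arrays did not separate. Ccl17 fell 2.33-fold with TNFa (log2 change -1.22 ± 0.23, adjusted p = 0.0111), by 0.98 on the log2 scale in VDRwt and by 1.46 in VDRmut. Over the 8 arrays the log2 signals of the genes had a Pearson r of -0.81, a description of arrays that share treatments.

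When VD3 had been added before TNFa, both CCR4 ligands lay closer to the untreated level. The VD3+TNFa arrays held 2.14-fold less Ccl22 signal than the arrays of TNFa alone (log2 change -1.10 ± 0.27, adjusted p = 0.0455). Ccl17 was 1.91-fold higher on VD3+TNFa than on TNFa arrays (log2 change 0.94 ± 0.23, adjusted p = 0.041). With VD3 present, neither gene passed the test for TNFa. The change was 0.35 for Ccl22 (adjusted p = 0.464) and -0.29 for Ccl17 (adjusted p = 0.473). The difference between the TNFa responses with and without VD3 was itself -1.34 ± 0.38 for Ccl22 and 0.94 ± 0.32 for Ccl17, and it missed the threshold for each (adjusted p = 0.105 and 0.154). In bulk RNA such as this, fewer cells that make a chemokine and less RNA per cell cannot be told apart.

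**Figure D1:**
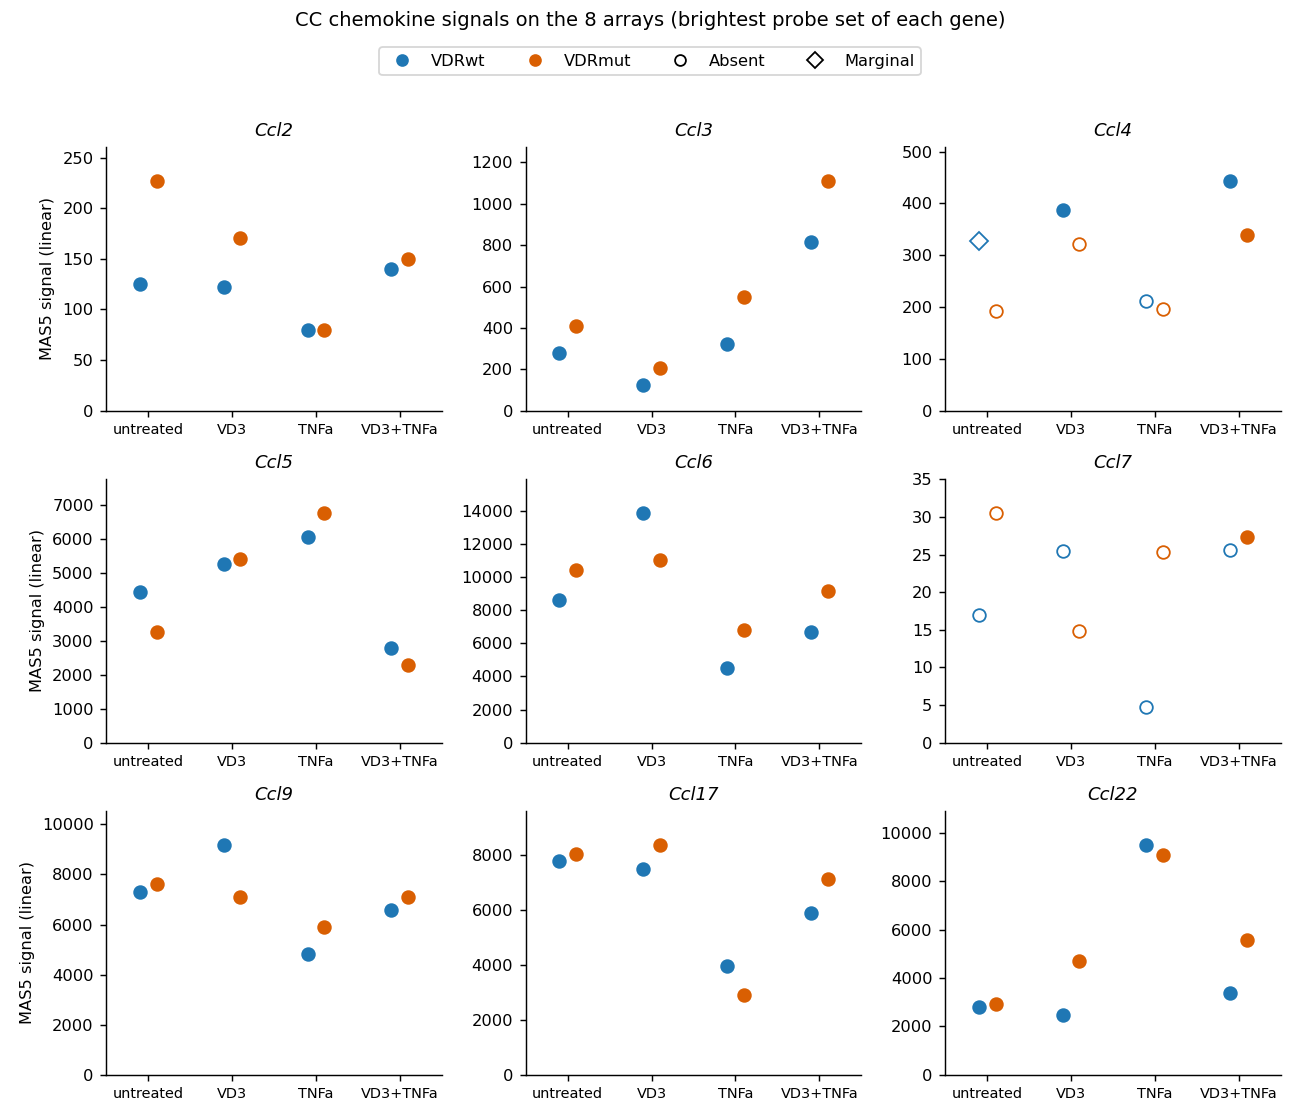
MAS5 signal (linear axis) of the 9 CC chemokine genes by their brightest probe set, with 1 panel per gene and 1 point per array. Treatments run in the order untreated, VD3, TNFa and VD3+TNFa, with VDRwt and VDRmut side by side. Ccl22 peaks on the arrays of TNFa alone (9488 and 9094), Ccl17 has its lowest signals there (3936 and 2907), and Ccl3 has its highest on VD3+TNFa (816.1 and 1109).

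The genes of these CCR4 ligands stand side by side on mouse chromosome 8, with only Cx3cl1 between them in the RefSeq order of protein-coding genes, and so they are neighbours with opposite responses. Their sequences upstream of the annotated start are shown for that reason, beside that of Ccl3, the member with the largest change. Each is the 250 bases before the start in RefSeq GRCm38.p6, read on the gene's strand. Capitals mark a loose kappaB motif on either strand, GGG and CC with any 5 bases between them, and the TATA sequence TATAAA on the gene's strand. The annotated start at the end of the Ccl17 window lies inside the RefSeq span of that gene, so it may be an internal one.
Ccl22, chr8:94745434-94745683, plus strand: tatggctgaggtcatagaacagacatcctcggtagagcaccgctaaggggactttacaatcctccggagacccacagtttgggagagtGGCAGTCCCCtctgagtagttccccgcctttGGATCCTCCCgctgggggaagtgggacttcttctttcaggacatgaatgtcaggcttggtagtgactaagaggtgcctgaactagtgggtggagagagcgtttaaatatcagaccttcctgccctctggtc
Ccl17, chr8:94810203-94810452, plus strand: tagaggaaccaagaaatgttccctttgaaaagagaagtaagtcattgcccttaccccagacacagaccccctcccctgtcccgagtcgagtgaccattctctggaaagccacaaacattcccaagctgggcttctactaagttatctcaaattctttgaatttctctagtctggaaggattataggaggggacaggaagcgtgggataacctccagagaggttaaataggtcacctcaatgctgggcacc
Ccl3, chr11:83649379-83649628, minus strand: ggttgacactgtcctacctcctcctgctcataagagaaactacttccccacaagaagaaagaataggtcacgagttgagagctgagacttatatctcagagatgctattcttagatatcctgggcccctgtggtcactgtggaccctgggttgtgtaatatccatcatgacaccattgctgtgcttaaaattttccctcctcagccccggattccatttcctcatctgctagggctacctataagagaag
The Ccl22 window held the loose motif at -162 to -153 and at -131 to -122, both on the opposite strand, and the Ccl17 and Ccl3 windows held neither capitalised motif. Of the 5 members with a window in the table (Ccl3, Ccl6, Ccl9, Ccl17 and Ccl22), 2 held the loose motif, Ccl22 and Ccl9, against 45.8% of 32851 windows of this length. TATAAA, here searched on both strands, was in the Ccl9 window and in 12.4% of all windows. A vitamin D response element in its strict form, GGTTCA repeated after any 3 bases, searched on both strands, was in 0 of the 5 and in 0.00609% of all windows. These are matches of letters in a short window and say nothing of where a factor binds.

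Ccl3, which attracts monocytes, T cells and NK cells, had the largest change of any member. Its signals (1419561_at) were 276.8, 123.5, 323.1 and 816.1 in VDRwt and 408.8, 206.5, 549.9 and 1109 in VDRmut, for untreated, VD3, TNFa and VD3+TNFa. VD3 alone gave the lowest signal and VD3+TNFa the highest within each genotype, and all 8 arrays were called Present. The untreated and TNFa arrays overlapped. TNFa without VD3 changed Ccl3 by 0.33 ± 0.21 in log2 (adjusted p = 0.371), whereas TNFa on cells given VD3 raised it 5.96-fold (2.58 ± 0.21, adjusted p = 0.00446), 6.61-fold in VDRwt and 5.37-fold in VDRmut. The difference between these responses, 2.25 ± 0.30, passed the test as well (adjusted p = 0.0147). On cells given TNFa, VD3 raised Ccl3 2.26-fold (1.18 ± 0.21, adjusted p = 0.0139). On cells without TNFa the same agent went with a lower signal in both genotypes (log2 change -1.08, 95% interval -1.56 to -0.59), which did not pass over all probe sets (adjusted p = 0.629). Part of the 5.96-fold response is thus measured against the low VD3-only arrays, and against untreated cells the VD3+TNFa signal was 2.95-fold higher in VDRwt and 2.71-fold higher in VDRmut, pairs for which no test was run.

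Ccl5, a chemokine that attracts T cells and monocytes, had its lowest signals where Ccl3 had its highest. Its signals (1418126_at) were 4435, 5256, 6052 and 2776 in VDRwt and 3265, 5409, 6752 and 2298 in VDRmut. The arrays of TNFa alone were the highest and the VD3+TNFa arrays the lowest of all 8. VD3 lowered Ccl5 2.53-fold on cells given TNFa (log2 change -1.34 ± 0.22, adjusted p = 0.00944). The TNFa response was 0.75 ± 0.22 without VD3 (adjusted p = 0.0585) and -1.08 ± 0.22 with it (adjusted p = 0.0578). Neither passed alone, but the difference between them did, at -1.83 ± 0.31 (adjusted p = 0.0284). Ccl3 and Ccl5, which both act on CCR1, had a Pearson r of -0.65 over the 8 arrays.

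Ccl4, which is encoded next to Ccl3, was measured near the detection limit. Its signals (1421578_at) were 326.9, 387.1, 210.9 and 442.9 in VDRwt and 192.2, 321.1, 195.7 and 338.7 in VDRmut, and only 3 of these were called Present, namely VD3 and VD3+TNFa in VDRwt and VD3+TNFa in VDRmut. The VD3+TNFa arrays read higher than the arrays of TNFa alone, but both of the latter were Absent. The signal was at least 1.91-fold higher with VD3+TNFa, which did not pass the test (adjusted p = 0.0512). Neither the untreated arrays nor those of TNFa alone were called Present, so no fold is given between them. Its r with Ccl3 was -0.036.

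**Figure D2:**
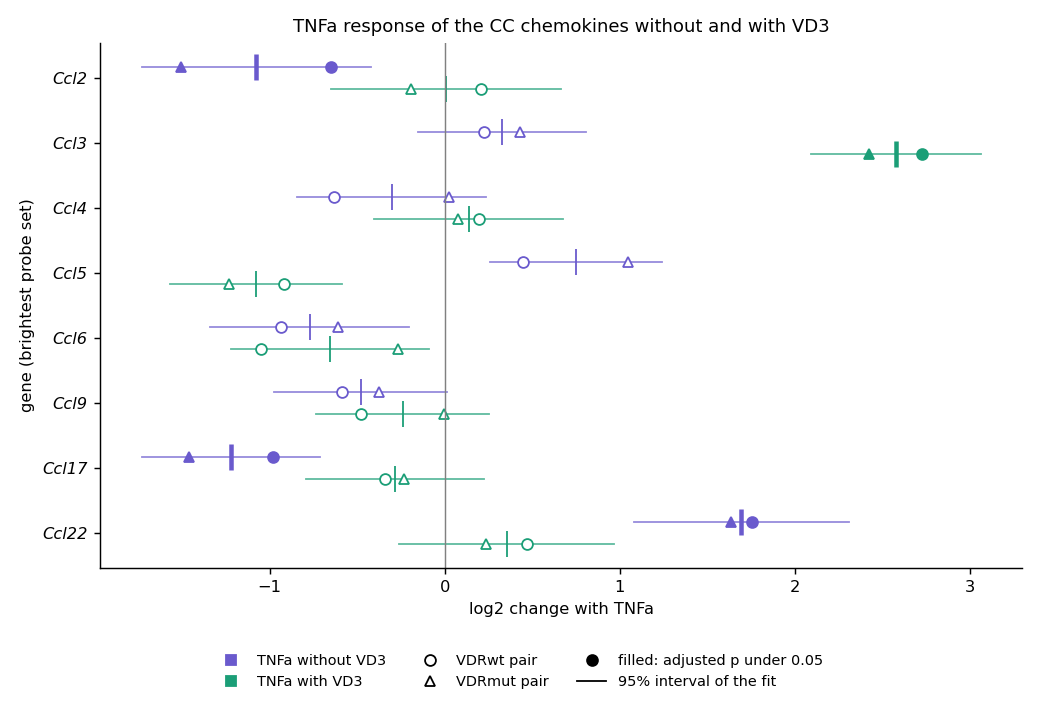
Log2 change with TNFa for each member gene, from cells without VD3 and from cells given VD3, as limma estimates with 95% intervals and the VDRwt and VDRmut pairs as points. Ccl22 rises by 1.69 and Ccl17 falls by 1.22 without VD3, and Ccl3 rises by 2.58 only with VD3, a difference of 2.25 that passed its own test.

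Ccl2 and Ccl7 act through CCR2, the receptor by which monocytes leave the blood. Ccl2 (1420380_at) read 124.7, 121.8, 79.5 and 140.3 in VDRwt and 226.6, 171, 79.9 and 149.7 in VDRmut, Present throughout. The arrays of TNFa alone were the lowest of all 8, and the other arrays overlapped between treatments. Ccl2 fell 2.11-fold with TNFa alone (log2 change -1.08 ± 0.29, adjusted p = 0.0457), with unequal pairs of -0.65 and -1.50. After VD3 the TNFa change was 0.0060 (adjusted p = 0.993), and the difference of responses, 1.08, was not called (adjusted p = 0.191). Ccl7 (1421228_at) read 4.8 to 30.5 and was called Present on 1 array, VDRmut VD3+TNFa at 27.4, so it was not tested and has no direction.

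Ccl6 and Ccl9 are CCR1 ligands of the mouse, made by macrophages and other myeloid cells, and all of their probe sets were Present on every array. Ccl6 (1417266_at) read 8646, 13859, 4516 and 6693 in VDRwt and 10404, 11032, 6830 and 9180 in VDRmut. Its second probe set (1420249_s_at) read 7238, 9058, 2428 and 7003 in VDRwt and 8999, 7990, 3802 and 9669 in VDRmut. In both the TNFa-alone array was the lowest of its genotype, but only in the second did the pair lie below every other array. The probe sets differ in what they call. The second fell 2.66-fold with TNFa (log2 change -1.41 ± 0.24, adjusted p = 0.00763) and was 2.71-fold higher on VD3+TNFa than on TNFa arrays (1.44 ± 0.24, adjusted p = 0.00979). The first gave -0.77 ± 0.25 (adjusted p = 0.0834) and 0.50 (adjusted p = 0.278) for the same comparisons. Their log2 signals had an r of 0.86 over the 8 arrays, and the second carries the suffix that Affymetrix gives to probe sets shared by several transcripts.

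Ccl9 had lower signals on the arrays of TNFa alone but no call. Its probe set 1417936_at read 7284, 9158, 4841 and 6576 in VDRwt and 7624, 7103, 5885 and 7082 in VDRmut, and the other, 1448898_at, read 3771 to 6488. In each the TNFa-alone pair lay below the other 6 arrays. The log2 changes with TNFa were -0.48 and -0.38 (adjusted p = 0.199 and 0.29). Ccl9 and Ccl6 are adjacent on chromosome 11 and had an r of 0.95 over the 8 arrays, while Ccl9 and Ccl22 had an r of -0.86.

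Counted by their brightest probe sets, 8 of the 9 members could be tested. Under TNFa without VD3, Ccl22 rose and Ccl2 and Ccl17 fell, 3 of 8, where 11.1% of all 12832 tested probe sets were called, 5.66% as higher and 5.39% as lower. The median log2 change was -0.39 over the 8 and 0.035 over all probe sets. Under TNFa with VD3, Ccl3 alone was called, as higher, against 0.803% of probe sets in either direction and 0.639% as higher, and the medians were -0.12 and -0.067. The difference of the responses was called for Ccl3 and Ccl5, where 1.77% of probe sets were called, 0.959% with a higher and 0.81% with a lower response, with medians of 0.34 and -0.079. These comparisons share arrays with each other, so a gene's low signal under TNFa alone enters several of them.

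VD3 by itself changed no member past the threshold. Of all probe sets 0 of 12832 (0%) were called by limma for VD3 without TNFa, and 977 (7.61%) had an unadjusted p under 0.05. Among the members 1 of 8 had such a p, Ccl3. The mean Ccl17 change between untreated and VD3 arrays was under 0.01. Ccl22 was lower with VD3 in VDRwt (-0.20) and higher in VDRmut (0.69). On TNFa-treated cells, in contrast, VD3 raised Ccl3 and Ccl17 and lowered Ccl5 and Ccl22, 4 of 8 members, where 6.97% of probe sets were called, 3.4% as higher and 3.57% as lower. The 8 members had a median of 0.68 here against -0.026 for all probe sets. Ccl2 (0.86, adjusted p = 0.113), Ccl6 (0.50, adjusted p = 0.278) and Ccl9 (0.35, adjusted p = 0.377) also lay higher in both genotypes without passing. So did Ccl4 (adjusted p = 0.0512), which was Absent on both arrays of TNFa alone.

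**Figure D3:**
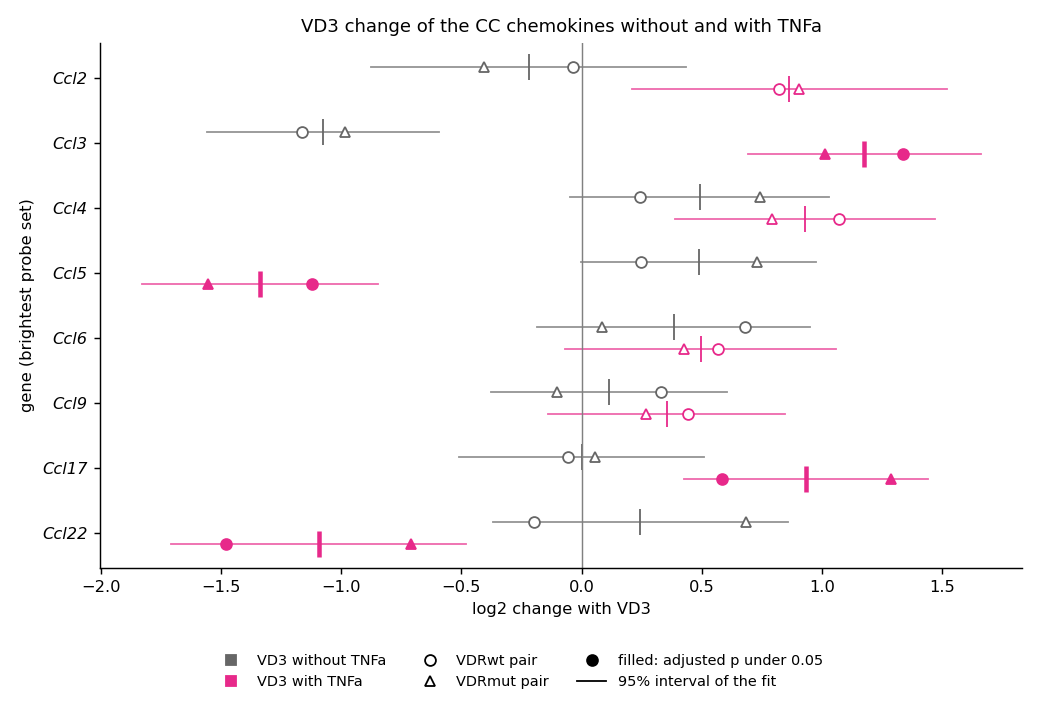
Log2 change with VD3 for each member gene, on cells without TNFa and on cells given TNFa, as limma estimates with 95% intervals and the VDRwt and VDRmut pairs as points. With TNFa, Ccl3 (1.18) and Ccl17 (0.94) lie above 0 and Ccl5 (-1.34) and Ccl22 (-1.10) below it.

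The VD3 changes were present in VDRmut cells too, whose receptor lacks its DNA-binding domain. On TNFa-treated cells the VDRwt and VDRmut pairs gave 1.34 and 1.01 for Ccl3, -1.12 and -1.56 for Ccl5, 0.58 and 1.29 for Ccl17, and -1.48 and -0.71 for Ccl22. All 4 genes kept their sign in VDRmut. They had been called on the mean of both pairs, which favours pairs of the same sign, so this agreement adds no support. No test was run within VDRmut, which has 1 array per condition. The difference of the VD3 effect, VDRmut minus VDRwt, ran from -0.37 for Ccl6 to 0.83 for Ccl22 (95% interval 0.11 to 1.54, adjusted p = 1). limma called 0 of 12832 probe sets for it (0%) and 390 (3.04%) had an unadjusted p under 0.05, with Ccl22 as the only one of the 8 members. With 2 residual degrees of freedom these intervals are wide, and a missed threshold does not show that the genotypes respond alike. Averaged over treatments, no member was called between genotypes, where 0.0623% of probe sets were. Ccl3 was higher on the VDRmut array in each of the 4 matched pairs (0.63 ± 0.15, adjusted p = 0.5). The neutrophil markers given above were also higher on VDRmut arrays, and their part in the Ccl3 difference was not tested. The TNFa effect by genotype ran from -0.63 for Ccl2 to 0.56 for Ccl6 (adjusted p of 0.874 to 0.992), with 0 probe sets called by limma (0%) and 619 (4.82%) at an unadjusted p under 0.05, with 0 of the 8 members. In that comparison the genotype cannot be told apart from the VDRwt scan day.

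How far the 12 calls rest on single arrays was measured by leaving out each array in turn. Each refit also has fewer residual degrees of freedom, so a call can be lost while its size stays the same. The Ccl2 change with TNFa, for example, stayed at -1.08 when any VD3 or VD3+TNFa array was left out, yet its call was lost. No call changed sign, but only 52 of the 96 refits stayed past the threshold. The TNFa calls of Ccl22, Ccl17 and the second Ccl6 probe set held in 7 of 8 refits each. They were lost without VDRwt TNFa for Ccl22 (1.38, adjusted p = 0.068) and Ccl6 (-1.19, adjusted p = 0.0897), and without VDRmut TNFa for Ccl17 (-0.92, adjusted p = 0.0936). The fall of Ccl2 held in 1 of 8, only when VDRwt untreated was left out. The Ccl3 response to TNFa with VD3 kept a size of 2.45 to 2.70 and held in 4 of 8, lost when any VD3 or VD3+TNFa array was missing (adjusted p of 0.0548 to 0.0841). The same 4 arrays decided the Ccl3 difference of responses, at 2.13 to 2.37. The Ccl5 difference was -2.04 to -1.62 and held only without VDRwt untreated.

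Of the calls for VD3 on TNFa-treated cells, that of Ccl17 held in 2 of 8 refits, that of Ccl5 in 4, and those of Ccl3, Ccl22 and the second Ccl6 probe set in 5. Leaving out VDRwt TNFa, VDRwt VD3+TNFa or VDRmut VD3+TNFa ended all 5. Ccl5 was also lost without VDRmut TNFa (-1.15, adjusted p = 0.0615), and Ccl17 without VDRmut TNFa (0.64, adjusted p = 0.28) or either VD3 array (0.94, adjusted p = 0.0513 and 0.0518). Without VDRwt TNFa they became 1.08 for Ccl3 (adjusted p = 0.111), -1.53 for Ccl5 (adjusted p = 0.0501), 1.21 for the second Ccl6 probe set (adjusted p = 0.106), 1.23 for Ccl17 (adjusted p = 0.0756) and -0.78 for Ccl22 (adjusted p = 0.318). With the scan day as a block, 1 term set the 2 VDRwt arrays with TNFa apart. The VDRmut arrays, with no recorded day, were grouped with the other VDRwt arrays. The TNFa effect averaged over VD3 then comes from the VDRmut pairs, and its difference with VD3 from both genotypes. None of the 5 TNFa calls then passed: Ccl22 gave 1.60 (adjusted p = 0.0576), Ccl17 -1.31 (0.0534), Ccl2 -1.39 (0.0677), the second Ccl6 probe set -1.17 (0.0576) and Ccl3 with VD3 2.55 (0.0643). The VD3 calls of Ccl17 and Ccl22 on TNFa-treated cells were lost as well (adjusted p = 0.0545 and 0.0665, and the same with a genotype by TNFa term), while those of Ccl3 and Ccl5 and both differences of responses held.

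Other settings ended calls as well. Without both arrays of low actin ratio, Ccl2 with TNFa was -0.77 (adjusted p = 0.262) and the Ccl5 difference was -1.37 (adjusted p = 0.265). The fall of Ccl17 with TNFa (adjusted p = 0.0693) and the VD3 calls of Ccl5, the second Ccl6 probe set, Ccl17 and Ccl22 on TNFa-treated cells (0.0635 to 0.317) were lost too, while those of Ccl3 held. With no filter on Present calls, Ccl2 with TNFa (0.0869), the Ccl5 difference (0.0775) and the VD3 calls of Ccl17 (0.113) and Ccl22 (0.106) missed the threshold. A signal floor of 50 in place of 0.1 left the sizes as they were and ended all 12 calls, with adjusted p of 0.0543 to 0.159.

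**Figure D4:**
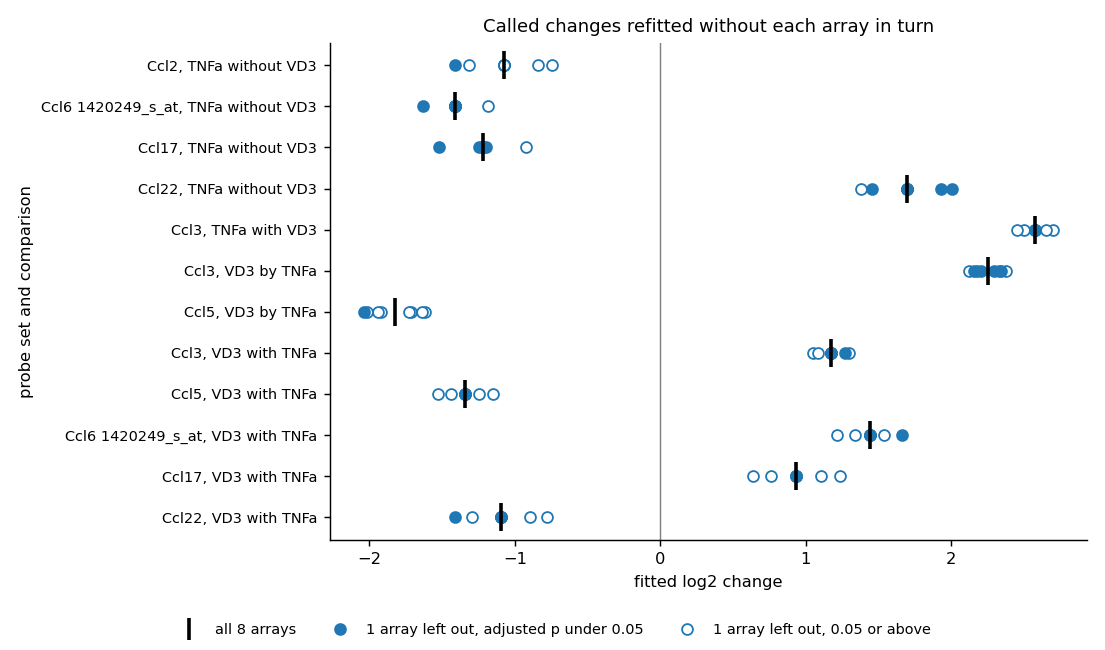
Log2 change of each of the 12 called member results when each of the 8 arrays is left out in turn, with filled points where the adjusted p stayed under 0.05 and open points where it did not. Every point keeps the sign of the full fit, and Ccl2 with TNFa and the Ccl5 difference of responses each hold in 1 of 8 refits.

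The other CC chemokines of the mouse were mostly undetected. Of 15 listed, 9 had a probe set of their own, and the brightest probe set of 8 of them (Ccl1, Ccl11, Ccl12, Ccl20, Ccl24, Ccl25, Ccl27a and Ccl28) was never called Present. A dimmer Ccl28 probe set was Present on all 8 arrays at 17.5 to 30.9. Ccl8, a monocyte attractant, was Present throughout at 75.9 to 194.9 and passed no test (TNFa without VD3 0.47, adjusted p = 0.412).

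Among the receptors, 14 of 15 had a probe set and 7 could be tested. Ccr7, which guides mature dendritic cells to the lymph node, read 831.9, 917.2, 4180 and 599.1 in VDRwt and 871, 1383, 3192 and 1162 in VDRmut. The arrays of TNFa alone were far the highest. It rose 4.29-fold with TNFa (adjusted p = 0.00421), was 4.38-fold lower with VD3+TNFa than with TNFa (adjusted p = 0.00674), and its response differed by -2.54 with VD3 (adjusted p = 0.0284). Ccr2, the receptor of Ccl2 and Ccl7, read 1654, 1116, 89.2 and 636 in VDRwt and 1160, 993.7, 239.1 and 769.3 in VDRmut. It fell 9.49-fold with TNFa (adjusted p = 0.00234) and was 4.79-fold higher with VD3+TNFa than with TNFa (adjusted p = 0.0125). Ccr1, a receptor of Ccl3, Ccl5, Ccl6 and Ccl9, fell 3.31-fold (adjusted p = 0.00556) and was 2.53-fold higher with VD3+TNFa than with TNFa (adjusted p = 0.0217). Ccrl2, which binds a chemoattractant without signalling, rose at least 3.65-fold with TNFa (adjusted p = 0.024). Under TNFa without VD3, 2 of 7 receptors rose and 2 fell, where 5.66% of all probe sets were called higher and 5.39% lower, and the median log2 change was 0.15 over the 7 and 0.035 over all probe sets. Ccr4, the receptor of Ccl17 and Ccl22, was Absent on all 8 arrays.

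Of 28 listed regulators of chemokine transcription and mRNA decay, 26 had a probe set and all 26 could be tested. With TNFa alone 9 rose and 1 fell, where 5.66% of all probe sets were called higher and 5.39% lower, and the median log2 change was 0.63 over the list and 0.035 over all probe sets. Among them were the NF-kappaB subunits Relb (1.44, adjusted p = 0.0126) and Rel (1.25, adjusted p = 0.0226) and the NF-kappaB cofactor Nfkbiz (2.12, adjusted p = 0.00177). Genes that restrain NF-kappaB rose as well, namely Tnfaip3 (1.911, adjusted p = 0.00307), Tnip1 (1.185, adjusted p = 0.0302) and Nfkbia (0.797, adjusted p = 0.0475). Zfp36, which destabilises cytokine mRNAs, rose by 1.18 (adjusted p = 0.00944), and Irf7, an interferon-induced factor, fell by 2.15 (adjusted p = 0.00577). With VD3 present, Nfkbiz again rose with TNFa (2.27, adjusted p = 0.0133), and of the 26 only Socs3, an inhibitor of cytokine signalling, passed beside it (1.82, adjusted p = 0.0494). In that comparison 0.803% of all probe sets were called, 0.639% as higher. VD3 on TNFa-treated cells, where 3.4% of all probe sets were called higher and 3.57% lower, lowered 4 of the 26, among them Relb (-1.25, adjusted p = 0.0303) and Zfp36 (-1.28, adjusted p = 0.00957), and raised 2, among them Irf7 (1.47, adjusted p = 0.0354). Of 11 enzymes and proteoglycans that trim or bind chemokines, 9 were tested. Sdc4 rose with TNFa (1.86, adjusted p = 0.0284), and Mmp8 fell (-1.45, adjusted p = 0.014) and was higher with VD3+TNFa than with TNFa (1.20, adjusted p = 0.0398). These were the only calls of the 9 for either comparison. With TNFa 5.66% of all probe sets were called higher and 5.39% lower, and for VD3 on TNFa-treated cells 3.4% and 3.57%. The median log2 change with TNFa was -0.31 over the 9 and 0.035 over all probe sets.

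For each tested member the other genes closest in pattern over the 8 arrays were found among 7570 genes. Ccl22 was closest to Creb1 (r = 0.986) and Etaa1 (0.981), and Ccl17 to Pla2g6 (0.988) and Coro2a (0.982). The pair for Ccl3 was 2610001J05Rik (0.969) and Eif4e (0.968), that for Ccl5 was Cx3cr1 (0.968) and Maf1 (0.959), and that for Ccl4 was Fosl2 (0.952) and Yaf2 (0.938). Ccl6 and Ccl9 shared Itgb2, the beta chain of leukocyte integrins, as the closest gene (0.985 and 0.98). Ccl2 was closest to Mrpl35 (0.982) and Prim2 (0.97). These are the highest of 7570 values on 8 arrays that share treatments, and they are given as a description.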

How the data were processed

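Per the file headers, the authors deposited 1 intensity (a linear signal) and 1 detection call per probe set and array. MAS5 is the tool in the submitters' processing notes, with no version given. Signals under 0.1 were raised to it (3 values) and put on the log2 scale. The 64 control probe sets were left out, and the 12832 probe sets Present on at least 2 of 8 arrays were tested. Gene symbols came from the platform annotation (20393 probe sets with 1 symbol, 691 with several, 1606 with none), and promoter sequences from RefSeq GRCm38.p6.

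limma 3.58.1 in R 4.3.3 (lmFit, eBayes with a trend) fitted genotype and 4 treatments, with 3 residual degrees of freedom, so the genotypes stand in as replicates of each treatment. Genotype interactions were fitted separately. Benjamini-Hochberg adjustment ran over all tested probe sets, with a threshold of 0.05, and ± is limma's standard error. Since no label says that arrays had cultures or animals of their own, the p-values describe the spread among the 8 arrays and no more, and it may be technical. The number of arrays limits the precision.

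All member probe sets are named, with the brightest standing for its gene. Also named are list members that passed a test (up to 6 a list, more among the regulators) and, for each member, the other genes of highest correlation. At least N-fold compares the brighter side with the array's lowest Present signal, or with the dim signal itself where that is higher. The members and lists were chosen with earlier results of these data known. The fits were tested on simulated data. Alternatives were the signal floor, the filter, quantile normalization, the series matrix values, scan day, a genotype by TNFa term and left-out arrays.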

Additional observations from a re-analysis of the deposited data

Results flagged for a closer look

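The TNFa response of Ccl3 differed between cells with and without VD3, by a log2 difference of 2.25 in the test of the difference itself (limma, adjusted p = 0.0147), with the same direction in both genotypes. The response of Ccl5 differed by -1.83 (limma, adjusted p = 0.0284), also in both genotypes. Both contrasts use all 8 arrays and average over the genotypes. A shared direction is favoured by such a call and adds no support to it. With 1 array per condition, no condition could be searched for arrays far from their replicates.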

How the results depend on the processing

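Each treatment effect rests on 2 pairs of arrays. None of the 12 called member results changed sign in 181 refits, of which 105 passed the threshold. These include refits on the series matrix values, which differ from the signals used by at most 0.05. All 12 passed there, which is no separate check. Of 80 member results, the 83 changes of sign among 1170 refits all fell on uncalled ones, and 11 uncalled refits passed. No paired analysis was possible because the labels give no replicate numbers to pair on and each condition has 1 array. The genotype term of the model already matches the arrays of each treatment by genotype. Raising the signal floor to 50 ended all 12 calls without moving their sizes by as much as 0.01. The cause was not tested.

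The counts of probe sets called moved as follows. For TNFa without VD3 they went from 1418 to 512 with the floor of 50 and 341 with scan day as a block, and leaving out an array gave 365 to 1089. For TNFa with VD3 they went from 103 to 1 with the floor, 6 without the filter, 168 without both arrays of low actin ratio, 1 with scan day and 7 with a genotype by TNFa term, and leaving out an array gave 0 to 692. For VD3 by TNFa they went from 227 to 10, 56, 144, 136 and 136 under these 5 settings, and 7 to 470 with an array left out. For VD3 without TNFa they went from 0 to 1 with the floor, and 0 to 59 with an array left out. For VD3 with TNFa they went from 894 to 96 with the floor and 578 without the filter, and 104 to 1176 with an array left out. For genotype they went from 8 to 0 with the floor, 3 without the filter, 2 with scan day and 4 with the genotype by TNFa term, and 2 to 8 with an array left out. For VD3 by genotype leaving out an array gave 0 to 18.

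The changes of sign in uncalled log2 changes were these. For TNFa with VD3, scan day gave Ccl2 -0.31 and the second Ccl6 probe set 0.20, and quantile normalization gave that probe set 0.46, Ccl9 0.20 and Ccl17 0.098. For VD3 by TNFa, leaving out the low-actin arrays gave Ccl6 -0.11. For VD3 without TNFa it gave Ccl2 0.087, and quantile normalization gave the second Ccl6 probe set -0.076 and Ccl17 -0.078. Between genotypes, quantile normalization gave Ccl9 -0.10, its second probe set -0.11 and Ccl17 -0.12, and scan day gave Ccl6 -0.031 and the Ccl9 probe sets -0.15 and -0.061. Leaving out the low-actin arrays gave Ccl5 0.10, Ccl9 -0.042 and Ccl17 -0.14, and leaving out the arrays of TNFa alone gave the Ccl9 probe sets -0.065 and -0.086. With an array left out the lowest and highest values were, for TNFa with VD3, Ccl2 -0.17 to 0.19, the second Ccl6 probe set -0.38 to 0.28, Ccl9 -0.50 to 0.018, the second Ccl9 probe set -0.069 to 0.17; for VD3 by TNFa, Ccl6 -0.27 to 0.50, Ccl9 -0.019 to 0.50; for VD3 without TNFa, Ccl2 -0.55 to 0.11, Ccl6 -0.0018 to 0.77, the second Ccl6 probe set -0.25 to 0.40, Ccl9 -0.14 to 0.37, the second Ccl9 probe set -0.039 to 0.20, Ccl17 -0.10 to 0.10, Ccl22 -0.11 to 0.60; for VDRmut against VDRwt, Ccl9 -0.065 to 0.15, the second Ccl9 probe set -0.086 to 0.095, Ccl17 -0.077 to 0.16; for TNFa by genotype, Ccl3 -0.21 to 0.12, Ccl5 -0.099 to 0.38, the second Ccl9 probe set -0.076 to 0.46, Ccl17 -0.54 to 0.16, Ccl22 -0.62 to 0.27; for VD3 by genotype, Ccl2 -0.57 to 0.28, Ccl3 -0.22 to 0.077, Ccl4 -0.22 to 0.44, Ccl5 -0.27 to 0.33, Ccl6 -0.76 to 0.024. The cause was not tested.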
